A study of Mus musculus with 55 samples.

Results

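Scar tissue from the infarcted left ventricle of type 1 diabetic mice was compared with that of type 2 diabetic mice at day 28 after myocardial infarction. The samples were taken by their titles: 10 libraries are titled type 1 diabetic and 10 type 2 diabetic at that day, which makes 20 of the 55 libraries of the series. All mice were C57BL/6J, an inbred strain, and in every group, controls included, the infarct had been made by tying off a coronary artery for good. The operation is described for day 7 alone, and that the later samples had it too is read from their titles and time label. Library names of the type 1 group carry hi STZ and those of the type 2 group carry lo STZ HFFD. The labels do not spell these terms out, and what else differs between the 2 treatments cannot be told apart from the type of diabetes. Non-diabetic infarct of the same day (11 libraries, Ctrl in their names) and the day 7 infarcts of type 1 and type 2 mice (8 libraries each) served as references. Neither age nor sex is stated in the sources used here. The labels do not say that libraries came from separate animals, so p-values reflect differences from library to library, and some of that spread may be technical. Library names begin with a number that no type 1 library shares with a type 2 library at day 28. What that number stands for is not stated, and it cannot be told apart from the type of diabetes.

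As background, interferons are cytokines that cells release on viral infection or on sensing nucleic acids out of place, and among the transcription factors they act through are STAT2, IRF9 and IRF7. Type I interferon turns on antiviral genes, while interferon gamma, made by T cells and natural killer (NK) cells, turns on the class I antigen presentation machinery and the guanylate-binding proteins. In the diabetic heart, fatty acids are known to replace glucose as fuel, and they switch on targets of the PPAR nuclear receptors. A scar at this stage is made of cross-linked collagen and elastic fibres laid down by fibroblasts.

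Total counts per library ran from 57440760 to 89553708 in the type 1 group, from 48105347 to 92869315 in the type 2 group and from 57979612 to 84380994 in the non-diabetic group. Mitochondrial transcripts made up 14.7% ± 2.39 (SD, n = 10) of the counts in type 1 and 16.0% ± 4.45 (n = 10) in type 2 libraries, a difference of -1.33 percentage points that did not pass a two-sided permutation test (p = 0.423, 100000 resamples). Cardiomyocyte markers (20 genes) were detected in all libraries. Type 2 replicate 4 stood apart. Its mean cardiomyocyte marker level was 8.95 log2 CPM (counts scaled to the library total) against 10.45 to 11.32 in the other type 2 libraries, its mitochondrial share was 6.50%, and its Ighm level of 12.73 was the highest of the 31 libraries at that day. Where a named gene lost its call without this library, the adjusted p without it is given beside the main value. Since these are bulk samples, fewer cells of a type and less RNA per cell cannot be told apart in any result on a cell type marker.

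Of 18901 genes tested, 224 were higher in type 1 than in type 2 infarct (1.19%) and 383 were lower (2.03%), at an adjusted p of 0.05 or less in edgeR. The lower genes differed by more. Their median absolute log2 difference was 0.79, with 134 genes beyond 1, against 0.37 and 13 genes among those higher in type 1. The median over all genes tested was -0.01. Without type 2 replicate 4 the counts were 160 higher and 267 lower. They were 118 and 254 without type 1 replicate 5, and 143 and 145 genes were higher without type 1 replicates 3 and 9.

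Each diabetic group was also set beside the non-diabetic infarcts, which both share. Against them 492 genes were higher (2.6%) and 267 lower (1.41%) in type 1 tissue, and 1362 were higher (7.21%) and 662 lower (3.5%) in type 2 tissue. Of the 383 genes lower in type 1 than in type 2, 277 passed the test as higher in type 2 than in non-diabetic infarct and 18 as lower in type 1. Of the 224 genes higher in type 1, 82 passed as lower in type 2 than in non-diabetic tissue and 56 as higher in type 1. Both sets were picked by a contrast of the same type 1 and type 2 libraries. The counts are therefore not separate evidence of which group departs. In 39 genes (0.206%) every type 1 library lay below every type 2 library, and in 6 (0.0317%) every type 1 library lay above. In the plot of fold change against adjusted p the interferon lists occupy the upper left.

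**Figure D1:**
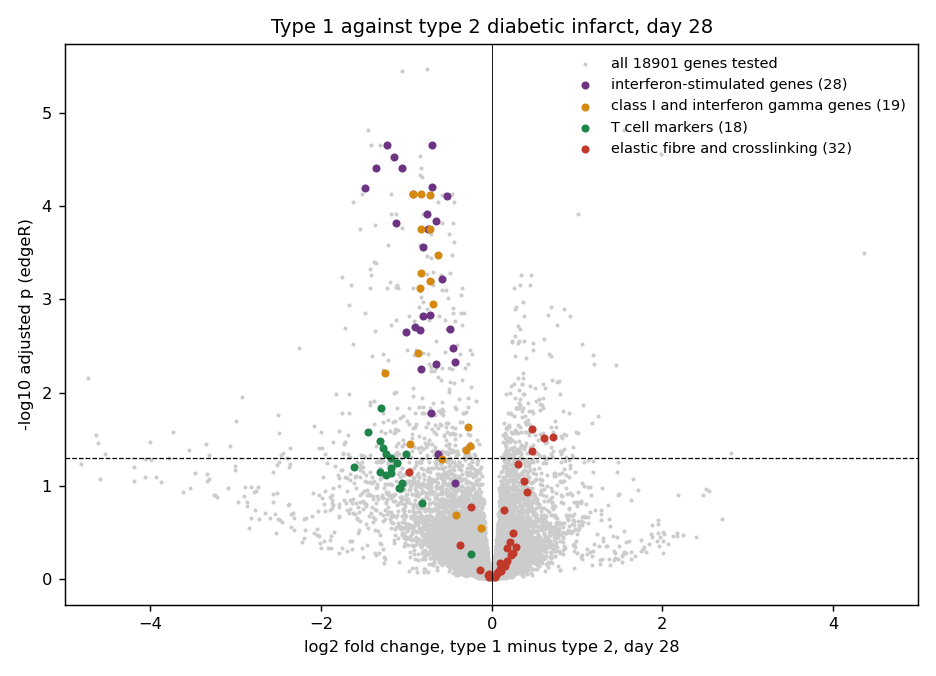
Fold change (log2, type 1 minus type 2, day 28, x axis) against -log10 of the edgeR adjusted p (y axis), one point per gene, with 4 gene lists coloured and 8 of 18901 genes outside the plotted range. The dashed line marks an adjusted p of 0.05, and the 28 interferon-stimulated genes all lie left of 0.

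Interferon-stimulated genes were lower in type 1 infarct almost as a block. Of 28 list members tested, 27 passed the test as lower in type 1 against a background of 2.03% of all genes, none as higher, and the list median was -0.75 on the log2 scale. The single member that missed the threshold, Ifit2, an antiviral RNA-binding protein, differed by -0.43 ± 0.14 (SE, adjusted p = 0.092). All 28 passed as higher in type 2 than in non-diabetic infarct (background 7.21%), and 4 passed as higher in type 1 than in non-diabetic infarct (background 2.6%). Their summed level ran from 702 to 1059 CPM (median 838) in type 1 libraries, from 1009 to 2097 (median 1330) in type 2 libraries and from 532 to 867 in non-diabetic ones. The type 1 group therefore reached above the non-diabetic range and overlapped the lower end of the type 2 range.

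Among the regulators, Irf7, the factor that amplifies type I interferon production, ran from 5.25 to 6.25 log2 CPM (median 5.70) in type 1 and from 6.21 to 7.81 (median 6.83) in type 2 libraries, with a non-diabetic median of 4.94. The groups met only at their ends. The difference was -1.23 ± 0.16 (SE, adjusted p = 2.23e-05), or 2.34-fold, and all 3 groups were distinct: type 1 exceeded non-diabetic tissue by 0.76 ± 0.15 (adjusted p = 0.00438) and type 2 by 1.99 ± 0.16 (adjusted p = 8.35e-10). Irf9 and Stat2, partners in a complex downstream of type I interferon, were lower by 0.53 and 0.45 in type 1 tissue (log2 differences of -0.53 and -0.45).

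**Figure D2:**
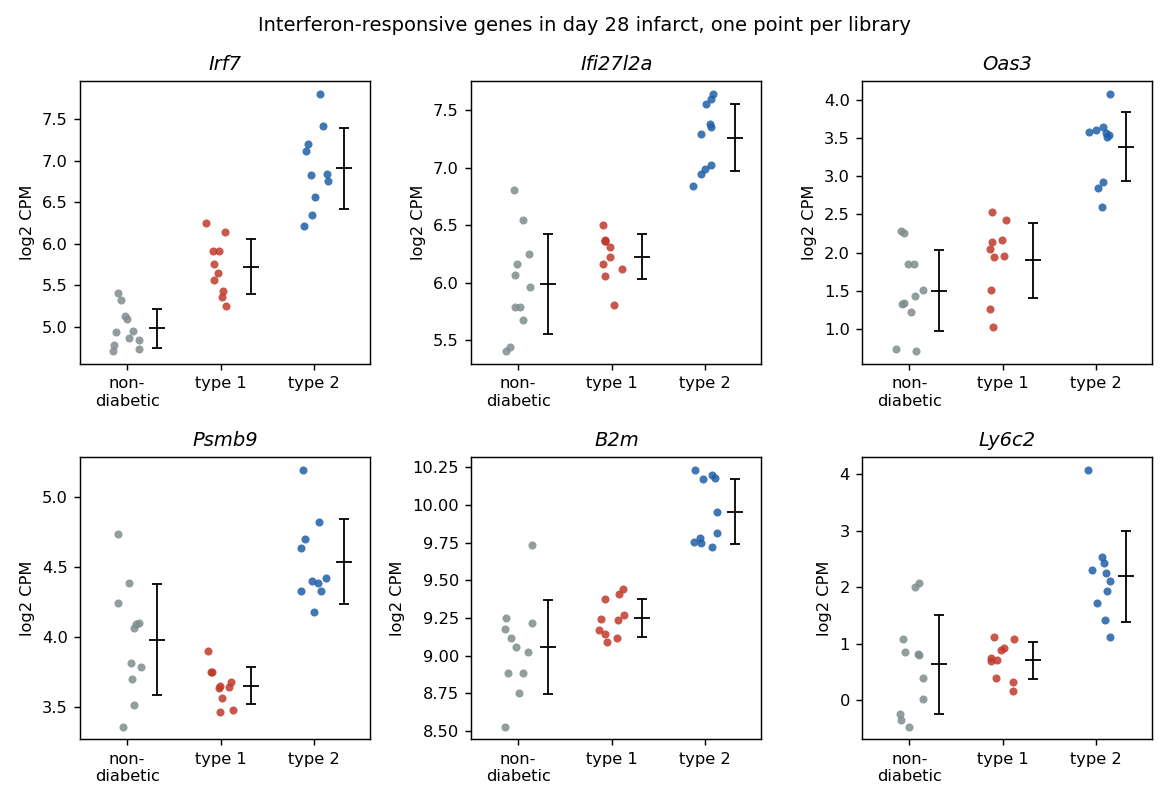
Levels (log2 CPM, y axis) of Irf7, Ifi27l2a, Oas3, Psmb9, B2m and Ly6c2 in the 11 non-diabetic, 10 type 1 and 10 type 2 libraries of day 28, one point per library, with mean and SD in black. Type 1 and type 2 points do not overlap for Ifi27l2a, Oas3, Psmb9 and B2m.

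The effectors Oas3, Oas2, Ifi27l2a, Ifi206 and Ifi213 had the same order of group means. Against non-diabetic infarct, type 1 passed as higher for Oas2 (0.51, adjusted p = 0.0456). It did not pass for Oas3 (0.38, adjusted p = 0.303), Ifi27l2a (0.19, adjusted p = 0.485), Ifi206 (0.55, adjusted p = 0.139) or Ifi213 (0.47, adjusted p = 0.117). Oas3, which makes the 2-5A messenger that activates RNase L, ran from 1.03 to 2.53 (median 2.00) in type 1 and from 2.59 to 4.08 (median 3.55) in type 2 libraries, without overlap. It differed by -1.48 ± 0.21 (2.80-fold, adjusted p = 6.37e-05). Oas2 differed by -1.14 ± 0.15 (adjusted p = 3.01e-05), with type 1 at 4.16 to 5.10 and type 2 at 5.02 to 6.56. Ifi27l2a, a classical interferon-induced gene of the mitochondrial membrane, ran from 5.81 to 6.50 in type 1 and from 6.84 to 7.64 in type 2 libraries, again without overlap (-1.05 ± 0.14, adjusted p = 3.88e-05). Zbp1, a sensor of left-handed nucleic acid that starts necroptosis, differed by -1.36 ± 0.19, and Usp18, which shuts off interferon receptor signalling, by -0.92 ± 0.13. The Ifi200 family members Ifi206 and Ifi213, nucleic acid sensors, differed by -1.52 ± 0.22 and -1.45 ± 0.18. Reads of these 2 genes, of H2-Q7 and of the Gbp and Ms4a4 genes can be split among near-identical copies, so their values are uncertain.

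The interferon result depended little on single libraries. Leaving out type 2 replicate 4 gave 28 of 28 members lower with a median of -0.75, and over all 20 fits without 1 library the count stayed between 26 and 28 members. Macrophage markers had a negative median as well (-0.29 over 15 markers, and -0.20 without type 2 replicate 4). Of the 15, 1 passed as lower (background 2.03%). The T cell (-1.18) and NK cell (-1.10) marker medians were negative too. With the macrophage mean as a covariate, an alternative chosen after the data had been seen, 27 of 28 were lower (median -0.68). Over all 18901 genes that fit called 522 lower. With the T and NK cell mean as a covariate, likewise chosen later, 27 were lower (median -0.66), against 728 of all 18901 genes.

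Since these genes moved together, their promoters were searched for GAAANNGAAA and for TTCNNNGAA, short sequences that interferon-activated complexes bind. The windows below come from the RefSeq promoter table of GRCm38.p6, matched by symbol, and are not on the build of the counts. They belong to the 6 interferon or class I list genes with the smallest p that were lower in type 1 and hold GAAANNGAAA on either strand in the 250 bases before the start site. Capitals mark the match, which reads as its reverse complement where it lies on the other strand.
Bst2, a tether of budding virions (chr8:71537562-71537621, minus strand): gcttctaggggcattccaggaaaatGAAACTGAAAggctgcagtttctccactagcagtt
Oas3 (chr5:120777700-120777759, minus strand): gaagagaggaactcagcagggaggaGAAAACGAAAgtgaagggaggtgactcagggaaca
Gbp3, a guanylate-binding protein (chr3:142559980-142560039, plus strand): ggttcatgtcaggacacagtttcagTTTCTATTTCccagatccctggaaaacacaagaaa
B2m, the light chain of class I molecules (chr2:122147523-122147582, plus strand): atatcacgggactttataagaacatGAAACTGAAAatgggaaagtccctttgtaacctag
Trim30a, a tripartite motif protein (chr7:104465195-104465254, minus strand): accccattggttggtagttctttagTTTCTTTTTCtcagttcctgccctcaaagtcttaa
Irgm1, an immunity-related GTPase (chr11:48871421-48871469, minus strand): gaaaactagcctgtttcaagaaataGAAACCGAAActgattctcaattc

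A promoter was listed for 12705 of the 18892 symbols tested, and 3.35% of them held GAAANNGAAA. The share was 19.9% of the 266 listed genes lower in type 1 (53 genes) and 3.11% of the 161 listed genes higher in type 1. It was 50% of 18 interferon-stimulated genes and 56.2% of 16 class I and interferon gamma genes. Of the 236 lower genes on neither list, 15.7% held it. Lower genes on neither list still include kin of list members and interferon-responsive genes, such as Oas1a, Gbp5 and Ly6a. Whether the share holds beyond interferon-responsive genes was not tested. TTCNNNGAA was held by 7.27% of all listed genes, by 10.9% of the lower and by 4.97% of the higher ones. Among interferon-stimulated genes its share was 11.1%, and among class I and interferon gamma genes 31.2%. Lower genes on neither list held it in 10.2%. A match is a description of these letters and was not tested as a site.

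Class I presentation and interferon gamma genes were lower in type 1 infarct as well, in 16 of 19 members (background 2.03%), with a median of -0.72. Of these members 15 passed as higher in type 2 than in non-diabetic tissue (background 7.21%), none as higher in type 1, and 1 as lower in type 1 (background 1.41%). B2m ran from 9.09 to 9.44 log2 CPM (median 9.24) in type 1 and from 9.72 to 10.24 (median 9.88) in type 2 libraries. No type 1 library reached the lowest type 2 library, and the difference was -0.72 ± 0.11 (adjusted p = 7.67e-05). Psmb9, a catalytic subunit of the immunoproteasome, which cuts peptides for class I molecules, ran from 3.46 to 3.90 in type 1 and from 4.17 to 5.19 in type 2 libraries (-0.92 ± 0.13, adjusted p = 7.51e-05). Its companion Psmb8 differed by -0.72 ± 0.11, and Tap1, a chain of the peptide transporter, by -0.83 ± 0.13. H2-Q7, a non-classical class I heavy chain, differed by -1.41 ± 0.18 (2.66-fold).

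The chemokines Cxcl9 and Cxcl10, which interferon gamma induces and which draw T cells, differed by -1.24 ± 0.27 (adjusted p = 0.00609) and -0.95 ± 0.26 (adjusted p = 0.0358). Without type 2 replicate 4 the adjusted p of Cxcl10 was 0.052. Nlrc5, the transactivator of class I genes, differed by -0.84 ± 0.15. Class II presentation gave no call in edgeR among 11 members, although all 11 were negative (median -0.48), 10 had an unadjusted p under 0.05, and 8 passed as higher in type 2 than in non-diabetic tissue (background 7.21%). The share of all genes with an unadjusted p under 0.05 was not computed. Counts at that cutoff, here and below, therefore have no background to be set against. DESeq2 and limma-voom called none of them either. The class II median was -0.31 without type 2 replicate 4. With the T and NK cell mean as a covariate it turned to 0.31, with 5 members higher in type 1. Over all 18901 genes that fit called 526 higher and 728 lower. Cd74, the class II chaperone, differed by -0.49 ± 0.21 (adjusted p = 0.224). With the T and NK cell mean as a covariate, the class I list had 10 lower members and its median was -0.45.

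**Figure D3:**
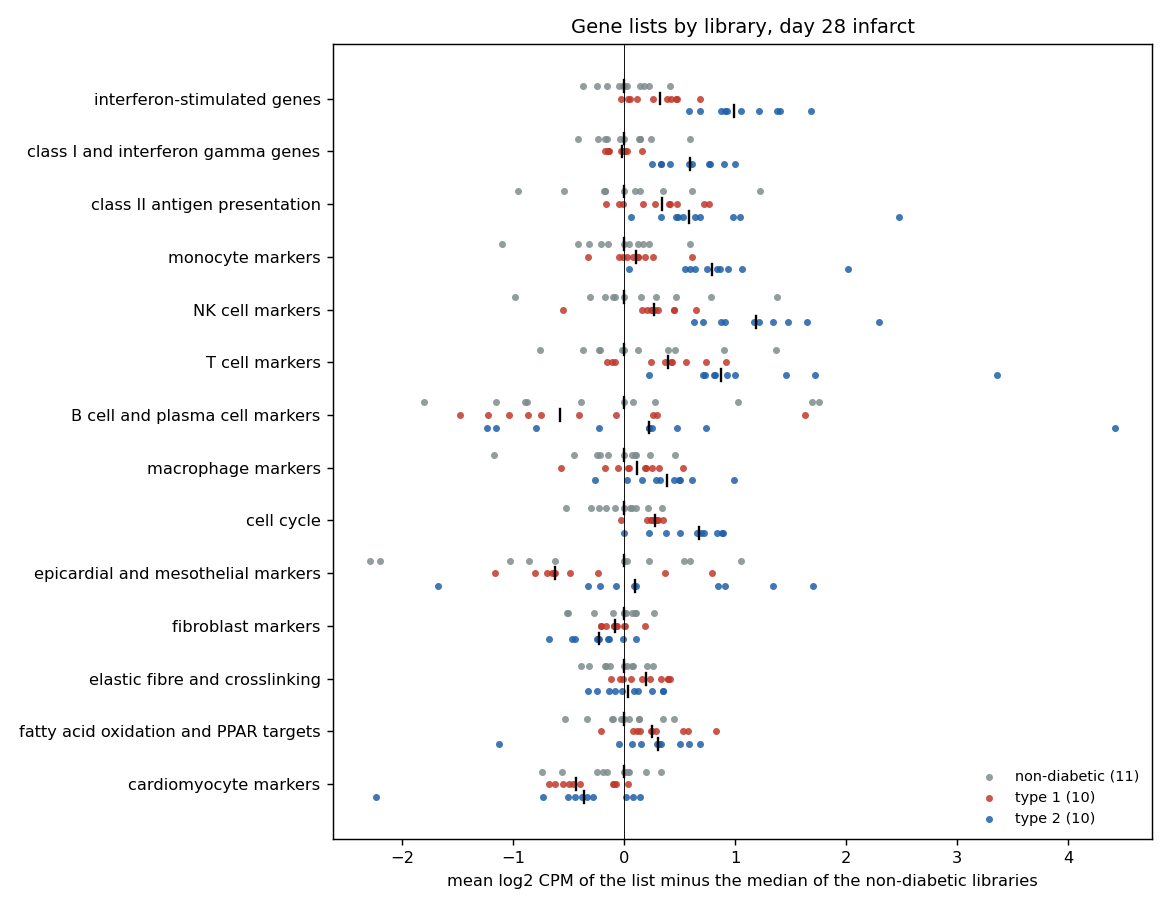
Mean log2 CPM of 14 gene lists in each day 28 library, less the median of the non-diabetic libraries (x axis), with one point per library and group medians as black bars. Type 2 libraries lie to the right for the interferon, class I, NK cell and monocyte lists, and the far point in the B cell and T cell lists is type 2 replicate 4.

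Markers of lymphoid cells were at low levels and lower in type 1 infarct in part. Of 13 NK cell markers 7 passed as lower (background 2.03%) and all 13 were negative (median -1.10), and 11 passed as higher in type 2 than in non-diabetic tissue (background 7.21%). Nkg7, a cytotoxic granule protein, differed by -1.27 ± 0.31 (adjusted p = 0.0165), and Gzma, a granule protease, by -1.27 ± 0.27 (adjusted p = 0.00577). Ccl5, a chemokine of activated lymphocytes, ran from 1.00 to 2.23 (median 1.49) in type 1 and from 2.02 to 3.92 (median 2.46) in type 2 libraries. It differed by -1.21 ± 0.30 (adjusted p = 0.0196), and by -1.02 (adjusted p = 0.0509) without type 2 replicate 4. Without that library 4 NK cell markers passed, with a median of -0.95. Il18r1, the receptor chain by which IL-18 acts on lymphocytes, differed by -1.42 ± 0.33 (adjusted p = 0.0126).

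Of 18 T cell markers 6 passed as lower (background 2.03%) and all 18 were negative (median -1.18). The number depended on single libraries: without type 2 replicate 4 a single marker passed and the median was -0.62. Trac, the constant chain of the alpha beta receptor, ran from -0.10 to 1.60 (median 0.94) in type 1 and from 0.68 to 4.22 (median 1.37) in type 2 libraries, and its difference of -1.27 (adjusted p = 0.0395) was -0.65 (adjusted p = 0.162) without that library. Cd3g, a signalling chain of the receptor, kept its call (-1.30 ± 0.31, adjusted p = 0.0147, and -0.96, adjusted p = 0.0436, without the library). The summed T cell markers ran from 17.4 to 36.8 CPM in type 1 and from 22.3 to 195 CPM in type 2 libraries, with overlap. The T cell count also fell to between 1 and 3 when any of type 1 replicates 1, 2, 4, 5, 7, 8 and 9 or type 2 replicate 9 was left out, and it was 12 without type 2 replicate 5.

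B cell and plasma cell markers gave no call in edgeR (13 of 14 had an unadjusted p under 0.05, and DESeq2 called 1), and their median of -1.79 turned to 0.08 without type 2 replicate 4. Monocyte markers passed as lower in 4 of 14 members (background 2.03%, median -0.97), and in 3 members with a median of -0.54 without the library. With the T and NK cell mean as a covariate 2 passed and the median was -0.03, in a fit that called 728 of all 18901 genes lower. Against non-diabetic tissue 9 passed as higher in type 2 (background 7.21%). Ly6c2, the surface mark of inflammatory monocytes, ran from 0.16 to 1.12 (median 0.73) in type 1 and from 1.12 to 4.08 (median 2.19) in type 2 libraries. It differed by -1.72 ± 0.33 (3.29-fold, adjusted p = 0.00201), and by -1.33 (adjusted p = 0.00505) without type 2 replicate 4. Plac8, abundant in monocytes and also an interferon-responsive gene, differed by -1.54 ± 0.24 (adjusted p = 0.000175), with type 1 at 2.16 to 3.85 and type 2 at 3.68 to 5.29. Ms4a4c differed by -1.42 ± 0.24 without overlap of the groups. With the T and NK cell mean as a covariate Ly6c2 differed by -0.49 (adjusted p = 0.0956). Whether cell makeup takes part in the interferon differences was not tested further.

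Of 30 cell cycle genes 6 passed as lower in type 1 infarct (background 2.03%), and all 30 were negative (median -0.40). With the macrophage mean as a covariate 2 passed (median -0.28), and with the T and NK cell mean 1 passed (median -0.16). Over all 18901 genes these fits called 522 and 728 lower. Of the 30 genes, 25 passed as higher in type 2 than in non-diabetic tissue (background 7.21%). Ube2c, which drives the exit from mitosis, ran from 1.27 to 1.88 (median 1.70) in type 1 and from 1.93 to 2.66 (median 2.38) in type 2 libraries, without overlap, and differed by -0.73 ± 0.15 (adjusted p = 0.00494). Kif11, a spindle motor, differed by -0.58 ± 0.13 (adjusted p = 0.0127). Tpx2, a spindle assembly factor, and Ccnb2, a mitotic cyclin, differed by -0.47 (adjusted p = 0.0412) and -0.58 (adjusted p = 0.0418), calls that ended in 13 and 14 of the 20 fits without 1 library (adjusted p = 0.0758 and 0.0696 without type 2 replicate 4). The count ranged from 2 to 13 members over those fits. It was 13 without type 2 replicate 6, and 2 without any of type 1 replicates 1, 2, 4, 5 and 10 or type 2 replicates 1, 3, 4, 9 and 10. It was 3 without type 1 replicate 3 or 7 or type 2 replicate 7.

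Fatty acid handling genes gave few calls between the diabetic groups. Of 35 fatty acid oxidation and PPAR targets, 1 was higher in type 1 (background 1.19%) and none lower, with a median of -0.01. Against non-diabetic infarct 6 passed as higher in type 1 (background 2.6%) and 5 as higher in type 2 (background 7.21%). With the cardiomyocyte mean as a covariate 3 were lower and 2 higher in type 1 than in type 2. Over all 18901 genes that fit called 685 lower and 532 higher. With the T and NK cell mean 6 were lower and 2 higher, against 728 and 526 of all 18901 genes. The gene called in the main fit was Angptl4, an inhibitor of lipoprotein lipase and a sensitive PPAR target. It ran from 2.90 to 4.74 (median 3.26) in non-diabetic, from 4.39 to 5.78 (median 5.30) in type 2 and from 5.27 to 6.57 (median 6.14) in type 1 libraries. Both diabetic groups lay high, type 1 above type 2 by 0.85 ± 0.23 (1.80-fold, adjusted p = 0.04), a call that ended in 10 of the 20 fits without 1 library while the difference stayed between 0.78 and 0.92. Pdk4, which turns pyruvate away from oxidation, exceeded non-diabetic tissue by 1.90 in type 1 and 1.48 in type 2, and the difference between the diabetic groups was 0.42 ± 0.22 (adjusted p = 0.332).

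Cpt1a, the gate of mitochondrial fatty acid uptake, differed by 0.28 ± 0.08 (adjusted p = 0.0533), just above the threshold. It was called in 4 of the 20 fits without 1 library and in 6 of 10 other settings, among them DESeq2, limma-voom and the 3 covariate fits. Ucp3, a mitochondrial carrier that fatty acids induce, differed by 0.55 ± 0.28 (adjusted p = 0.33). Bdh1 and Oxct1, which burn ketone bodies, differed by -0.47 ± 0.22 (adjusted p = 0.28) and -0.13 ± 0.15 (adjusted p = 0.767). Bdh1 was called lower in 4 of 10 other settings, limma-voom and the 3 covariate fits. With the T and NK cell mean as a covariate it differed by -0.99 (adjusted p = 0.00672). Oxct1 was called lower in 2 other settings, the cardiomyocyte and the T and NK cell covariate fits. Bdh1 was lower than in non-diabetic tissue in both diabetic groups, by -1.17 (adjusted p = 0.00242) in type 1 and -0.70 (adjusted p = 0.0364) in type 2. Slc2a4, the insulin-responsive glucose transporter GLUT4, differed by -0.20 ± 0.21 (adjusted p = 0.729).

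Txnip, a brake on glucose uptake whose transcription follows intracellular glucose, was the 1 call among 15 glucose sensing, polyol and hexosamine genes (background 1.19%). Its type 1 libraries ran from 9.57 to 10.05 (median 9.70) and its type 2 libraries from 8.95 to 9.57 (median 9.24), so the ranges met at 9.57. The difference was 0.48 ± 0.10 (1.40-fold, adjusted p = 0.00297), and type 1 exceeded non-diabetic tissue by 0.82 and type 2 by 0.34. Igf1r, the receptor of insulin-like growth factor 1, was the 1 call among 21 insulin signalling genes (background 1.19%). It differed by 0.32 ± 0.06 (adjusted p = 0.00279). Glycolysis (25 genes), the tricarboxylic acid cycle (24), the nuclear (45) and mitochondrial (13) respiratory chain genes, ketone body enzymes (7) and sterol synthesis (21) gave no call in edgeR. At an unadjusted p under 0.05 they held 4, 0, 0, 0, 3 and 2 genes. DESeq2 called 1 glycolysis gene and limma-voom 1 gene each of the glycolysis, ketone body and sterol lists. With the cardiomyocyte mean as a covariate, 3 tricarboxylic acid cycle, 6 nuclear and 4 mitochondrial respiratory chain and 3 ketone body genes were lower in type 1. With the T and NK cell mean these lists had 4, 5, 6 and 3 lower genes, and 1 ketone body gene was higher. Over all 18901 genes the 2 covariate fits called 685 and 728 lower. Glycolysis and sterol synthesis had at most 1 gene in either direction in both fits.

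**Figure D4:**
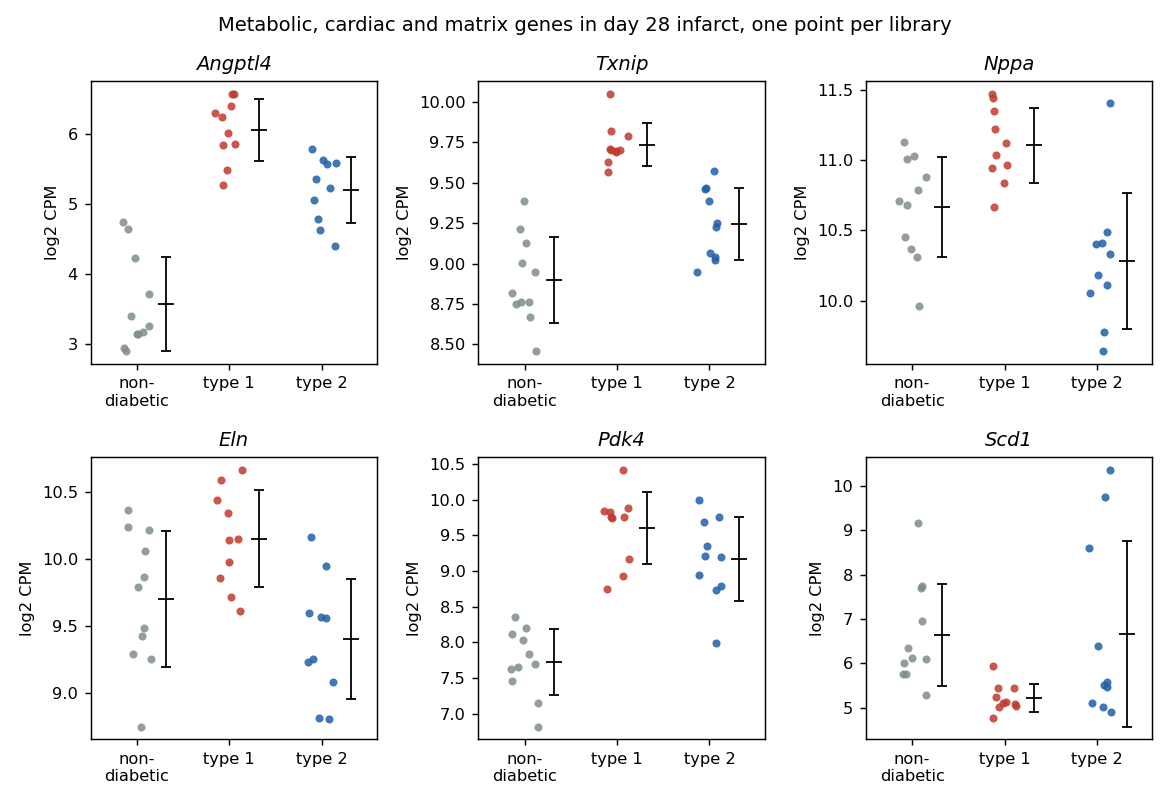
Levels (log2 CPM, y axis) of Angptl4, Txnip, Nppa, Eln, Pdk4 and Scd1 in the 11 non-diabetic, 10 type 1 and 10 type 2 libraries of day 28, one point per library, with mean and SD in black. Type 1 lies highest for Angptl4 and Txnip, and Scd1 splits the type 2 group into 3 high libraries and 7 others.

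Scd1, the desaturase that makes monounsaturated fatty acids, had the largest fold change among the lower genes with a mean level of at least 1 log2 CPM, and it did not come from the whole group. It ran from 4.76 to 5.94 (median 5.11) in type 1 libraries. In type 2 replicates 3, 4 and 8 it stood at 9.77, 8.59 and 10.37, and the other 7 type 2 libraries ran from 4.89 to 6.40, overlapping type 1. The fitted difference was -2.93 ± 0.67 (adjusted p = 0.0112), and the call was lost in limma-voom with quality weights. The mean of adipocyte markers in those 3 libraries was 5.84, 5.18 and 5.68 log2 CPM, and it was 5.91 in type 1 replicate 10, where Scd1 stood at 5.94. Their part in the result was not tested. Scd2, a second desaturase, differed by -0.57 ± 0.14 (adjusted p = 0.0158). Scd1 and Scd2 were the 2 calls among 18 fatty acid synthesis and storage genes (background 2.03%).

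Targets of the liver X receptors, which sense oxysterols in macrophages, were lower in type 1 in 4 of 16 members (background 2.03%), with a median of -0.28 and 13 negative. Abca1, which exports cholesterol, ran from 4.74 to 5.57 (median 5.15) in type 1 and from 5.40 to 6.16 (median 5.67) in type 2 libraries, and differed by -0.54 ± 0.10 (adjusted p = 0.000792). Abcg1, a second exporter, differed by -0.50 ± 0.11 (adjusted p = 0.0054). Nr1h3, the receptor LXR alpha itself, differed by -0.38 ± 0.08 (adjusted p = 0.00384), and here it was type 1 that departed from non-diabetic tissue, by -0.33 (adjusted p = 0.0103), while type 2 differed by 0.04 (adjusted p = 0.762). Lpcat3, a phospholipid acyltransferase, differed by -0.26 (adjusted p = 0.035), a call lost in 9 of the 20 fits without 1 library (adjusted p = 0.069 without type 2 replicate 4). With the T and NK cell mean as a covariate the list median was 0.02, and Abcg1 differed by -0.21 (adjusted p = 0.161).

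Genes of the stressed cardiomyocyte were higher in type 1 in 2 of 16 list members (background 1.19%). Nppa, atrial natriuretic peptide, ran from 10.67 to 11.47 (median 11.08) in type 1 and from 9.64 to 11.41 (median 10.26) in type 2 libraries, and 1 type 2 library, replicate 6, lay among the type 1 values. The difference was 0.76 ± 0.17 (1.70-fold, adjusted p = 0.00772), and neither group passed against non-diabetic tissue (0.42 in type 1, adjusted p = 0.139, and -0.34 in type 2, adjusted p = 0.188). Myh7, the slow myosin heavy chain, differed by 0.61 ± 0.18 (adjusted p = 0.0476), a call that ended in 15 of the 20 fits without 1 library. It was higher in type 1 than in non-diabetic tissue (0.73, adjusted p = 0.0122). Nppb, the related B-type peptide, differed by 0.27 ± 0.14 (adjusted p = 0.314), and Myh6, the fast heavy chain, by -0.20 ± 0.27 (adjusted p = 0.8). The 20 cardiomyocyte markers gave no call in edgeR (median 0.02, 1 with an unadjusted p under 0.05, none called by DESeq2 or limma-voom).

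Elastic fibre genes were higher in type 1 infarct in 4 of 32 members (background 1.19%), with a median of 0.13 and none lower. Eln, tropoelastin, ran from 9.61 to 10.67 (median 10.15) in type 1 and from 8.81 to 10.17 (median 9.41) in type 2 libraries, and differed by 0.72 ± 0.19 (1.65-fold, adjusted p = 0.0298). Fbn2, a microfibril scaffold, differed by 0.48 ± 0.12 (adjusted p = 0.0248), and Mfap2, its partner in microfibrils, by 0.62 ± 0.16 (adjusted p = 0.0306). Pcolce2, an enhancer of procollagen cleavage, differed by 0.48 ± 0.13 (adjusted p = 0.0418). These are small changes near the threshold: over the 20 fits without 1 library the count ran from 0 to 5, with none left without type 1 replicate 5 or 9, 1 without type 1 replicate 3 or type 2 replicate 8, and 2 without type 1 replicate 7 or type 2 replicate 1 or 9. With the macrophage mean as a covariate 9 of the 32 were higher, against 642 of all 18901 genes.

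Collagen chains gave few calls. Col1a1, the chief chain of the scar, differed by -0.10 ± 0.16 (adjusted p = 0.837), with type 1 at 9.39 to 10.59 and type 2 at 9.44 to 10.66. Of 41 collagen chains 2 were higher in type 1 (background 1.19%): Col13a1, a transmembrane collagen, by 0.69 ± 0.14 (adjusted p = 0.00407), and Col27a1, a fibrillar collagen of cartilage, by 0.47 ± 0.13 (adjusted p = 0.0422). Postn, which activated fibroblasts secrete, differed by 0.18 ± 0.12 (adjusted p = 0.524). Among 14 fibroblast markers 2 were higher in type 1 (background 1.19%). They were Gsn, an actin-severing protein (0.70 ± 0.15, adjusted p = 0.00738), and Pi16, of adventitial fibroblasts (0.42 ± 0.10, adjusted p = 0.013). Of the 14, 4 were lower in type 2 than in non-diabetic tissue (background 3.5%). Tgfb2, a fibrogenic cytokine, differed by 0.39 ± 0.10 (adjusted p = 0.0205).

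The other large changes among higher genes were spread over functions. Lrrc4b, a synaptic adhesion protein, differed by 1.20 ± 0.25 (2.29-fold, adjusted p = 0.00497), and here type 2 lay below non-diabetic tissue (-0.91, adjusted p = 0.0152). Peg3, an imprinted zinc finger gene, differed by 0.92 ± 0.17 (adjusted p = 0.0015), Ache, acetylcholinesterase, by 0.80 ± 0.18 (adjusted p = 0.0103) and Pak3, a p21-activated kinase, by 0.70 ± 0.18 (adjusted p = 0.0231). All 3 were higher in type 1 than in non-diabetic tissue, by 0.76, 0.87 and 0.98. Itga2, a collagen receptor chain, differed by 0.79 ± 0.17 (adjusted p = 0.00756) and Hipk2, a nuclear kinase, by 0.87 ± 0.23 (adjusted p = 0.0282, and 0.0598 without type 2 replicate 4). For Hipk2 the type 1 libraries were split along the first number of the library name. Replicates 1 to 4, with 65 or 67, stood at 4.31 to 4.70. The other 6 type 1 libraries, with 68 or 69, stood at 2.98 to 3.44, inside the type 2 range of 2.21 to 3.59. The Hipk2 call was lost with libraries summed by that number, and the labels do not say what it stands for.

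Among the largest lower changes, Wnt4, a secreted Wnt ligand, and Gata5, a transcription factor of the epicardium, differed by -1.74 ± 0.49 (adjusted p = 0.0443) and -1.73 ± 0.47 (adjusted p = 0.0356). Both ranges overlapped widely (Wnt4 at 0.59 to 3.01 in type 1 and 1.52 to 5.02 in type 2), and each call ended in 11 of the 20 fits without 1 library. Without type 2 replicate 4 the adjusted p was 0.0979 for Wnt4 and 0.0804 for Gata5. Epicardial and mesothelial markers had a negative median too (-0.89 over 12 markers, none called by edgeR, 7 with an unadjusted p under 0.05, 1 called by DESeq2, summed level 107 to 441 CPM in type 1 and 80.2 to 925 CPM in type 2). Their part in the result was not tested.

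Cytokines and chemokines were mixed, with 2 of 33 higher in type 1 (background 1.19%) and 3 lower (background 2.03%). Besides Tgfb2, the neutrophil chemokine Cxcl5 was higher (0.95 ± 0.26, adjusted p = 0.0385). Besides Ccl5, Ccl8, a monocyte chemokine, was lower (-1.14 ± 0.30, adjusted p = 0.0271), as was Il18, the inflammasome cytokine that primes interferon gamma release (-0.80 ± 0.22, adjusted p = 0.04). Without type 2 replicate 4 none of the 3 lower calls held (adjusted p = 0.0509, 0.0719 and 0.0994), nor did that of Cxcl5 (0.90, adjusted p = 0.0719). Il1b differed by 0.20 ± 0.42 (adjusted p = 0.884), S100a8, an abundant neutrophil protein, by -0.00 ± 0.29 (adjusted p = 0.996), and Spp1, osteopontin, by 0.06 ± 0.21 (adjusted p = 0.934).

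At day 7 the same contrast could be taken between 8 type 1 and 8 type 2 libraries, and it called 275 of 18165 genes higher (1.51%) and 217 lower (1.19%) in type 1. Day 7 and day 28 libraries were sequenced as separate projects by their names, so the change with time and the change of project cannot be told apart, but each contrast lies within a project. Of the 383 genes lower at day 28, 365 were tested at day 7, where 80 were lower and 4 higher. Of the 224 genes higher at day 28, 221 were tested and 13 were higher at day 7. A test of the difference between both contrasts called 139 of 20421 genes (0.681%).

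Interferon-stimulated genes were lower in type 1 at both days: at day 7 in 18 of 28 members (background 1.19%), with a median of -0.49. Irf7 ran from 6.04 to 6.86 (median 6.53) in type 1 and from 7.01 to 7.67 (median 7.08) in type 2 libraries at day 7, without overlap. Its contrast was -0.70 at day 7 (adjusted p = 0.00539) and -1.23 at day 28, and the difference of -0.52 between days did not pass (adjusted p = 0.226). Of the 28 members, Zbp1 alone had a contrast that differed between days (difference -0.92, adjusted p = 0.0498). NK cell markers were lower at day 7 in 6 of 13 (background 1.19%, median -0.87), and the 30 cell cycle genes had a day 7 median of 0.14.

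Markers of tissue-resident macrophages behaved otherwise. At day 7, 5 of 12 were higher in type 1 (background 1.51%). At day 28 none was higher (background 1.19%) and 2 were lower (background 2.03%). The contrast differed between days in 6 of 12 (background 0.681%), all towards type 2 at day 28. Mrc1, the mannose receptor, ran from 7.47 to 8.64 (median 8.42) in type 1 and from 6.83 to 7.64 (median 7.27) in type 2 libraries at day 7, but from 5.48 to 6.78 (median 6.41) and 5.80 to 7.17 (median 6.33) at day 28. Its contrast went from 0.99 (adjusted p = 0.00472) to -0.16 (adjusted p = 0.728), and the difference of -1.14 passed (adjusted p = 0.016). F13a1, the clotting factor XIII chain made by resident macrophages, went from 1.66 to -0.49 and Cbr2, a carbonyl reductase of the same cells, from 1.02 to -0.80. Cd163, the haemoglobin scavenger receptor, went from 2.25 to -0.18, and Folr2, a folate receptor, from 0.25 to -1.12.

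**Figure D5:**
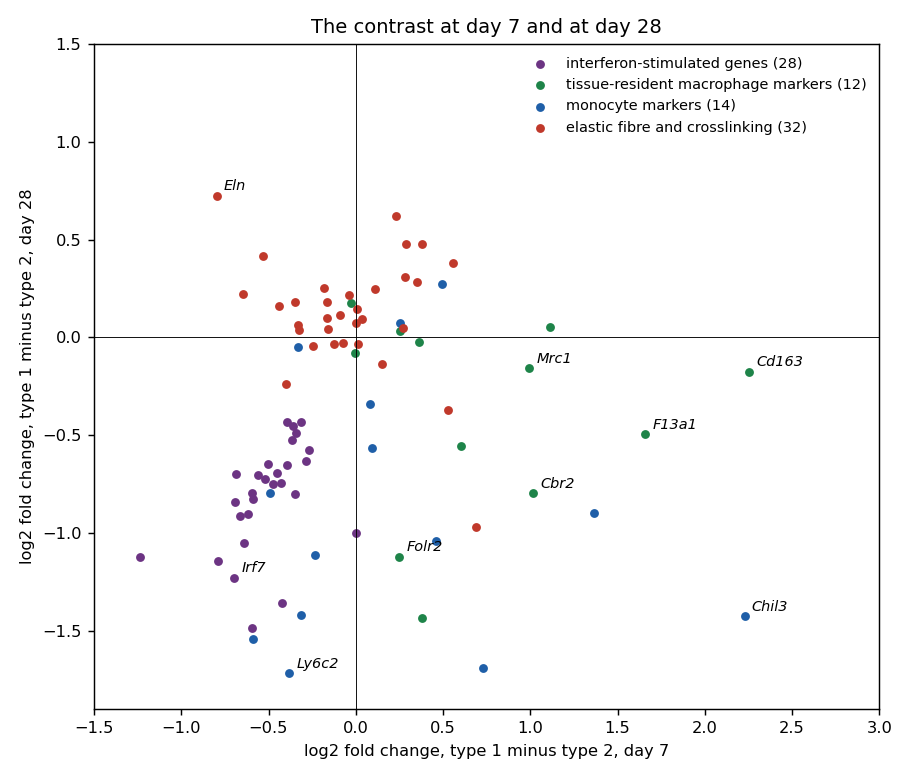
Log2 fold change of type 1 minus type 2 at day 7 (x axis) and at day 28 (y axis) for members of 4 gene lists, one point per gene. Interferon-stimulated genes lie below 0 at day 28 and at or left of 0 at day 7, while Mrc1, Cd163, F13a1 and Cbr2 lie to the right at day 7 and at or below 0 at day 28.

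Ccl8 followed those markers, with a contrast of 0.82 (adjusted p = 0.0146) at day 7 and -1.14 at day 28 (difference -1.94, adjusted p = 0.00651). Type 1 libraries ran from 5.10 to 6.53 and type 2 from 4.47 to 5.25 at day 7, against 2.48 to 4.30 and 3.58 to 5.77 at day 28. Eln moved the other way: its contrast was -0.80 (adjusted p = 0.146) at day 7 and 0.72 at day 28, a difference of 1.54 (adjusted p = 0.0297). Type 2 libraries were at 8.82 to 10.95 (median 10.00) at day 7 and type 1 at 8.36 to 9.71 (median 9.20), an order that was turned at day 28. Scd1 differed by 0.94 (adjusted p = 0.0725) at day 7, and the difference between days was -3.83 (adjusted p = 0.0112). At day 7 its type 1 libraries ran from 4.99 to 7.68 (median 5.32) and its type 2 libraries from 4.77 to 5.17. At day 28 the 3 type 2 libraries named above stood high. How much each day adds to the difference was not tested.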

How the data were processed

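RNA of infarcted left ventricle had been extracted with the PureLink RNA Mini Kit and made into libraries with the TruSeq Stranded mRNA kit, per the labels' protocols. The authors deposited raw counts per Ensembl gene, 1 table per day (57186 genes at day 28). The submitters' processing notes name DESeq2 and the build mm39. Per the file headers, day 28 counts came from coordinate-sorted alignment files. Not given in the sources used here were the aligner, the counter, its strand setting and the gene models, so overlapping antisense genes are not separated. Of the counts from 1 to 49, 75.2% were even. Whether a read pair was counted as 1 or 2 is not stated, so total counts may overstate the fragments sequenced. Symbols came from GENCODE M21 by identifier (51880 matched, holding 99.6% of the counts).

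The 31 day 28 libraries were fitted together in R 4.3.3 with edgeR 4.0.16: TMM, filterByExpr (minimum count 10, total 15), glmQLFit and glmQLFTest, Benjamini-Hochberg adjusted p at or under 0.05 as a call. Adjusted p-values are from edgeR unless another tool is named. Day 7 was fitted alike, and all 55 libraries gave the difference between days. SE is the log2 change over the square root of F. Levels are log2 CPM on TMM-scaled totals of the genes tested, with a prior count of 2. The script was tested on simulated counts with planted changes. The closest 2 libraries of a group differed by a chi-square of 25.0 per gene, beyond counting noise also if each pair had been counted as 2.

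Groups came from the titles. The members and the 52 gene lists were chosen with earlier results of these data known. Named genes are the 12 largest changes per direction among called genes with a mean of at least 1 log2 CPM and a proper gene name, up to 4 members of each list with 3 calls or more, and 20 fixed genes. A few genes that meet this rule are not reported here. Other list members named were chosen after their values were seen. Alternatives were DESeq2 1.42.0, limma-voom (limma 3.58.1), RLE scaling, no filter, diabetic libraries only, a replicate block, marker covariates, sums by the first number of the library name, and each library left out.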

Additional observations from a re-analysis of the deposited data

Results flagged for a closer look

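In groups of 10 libraries, 16 values stood farther from the rest of their group than Dixon's 95% limit allows, out of 140 groups looked at, where chance gives about 1 in 20, or 7. Type 2 replicate 4 held 10 of them. It was highest for Ly6c2 (4.08 log2 CPM, others 1.12 to 2.53), Trbc2, a T cell receptor chain (3.81, others 0.01 to 1.84), and Il2rb, an interleukin receptor chain of NK and T cells (4.60, others 2.10 to 3.34). It was lowest for the heart muscle genes Slc2a4 (5.45), Bdh1 (4.48), Oxct1 (8.09), Nppb (8.56), Myh6 (10.92) and Myh7 (9.98) and for the cardiomyocyte marker mean (8.95). Among other type 2 libraries, replicate 6 was high for Nppa (11.41, others 9.64 to 10.49), replicate 5 low for Mfap2 (2.57) and replicate 1 high for Il1b (3.91). Among type 1 libraries, replicate 1 was low for Tgfb2 (5.97), replicate 10 low for Ccnb2 (0.76) and replicate 7 high for Txnip (10.05).

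The contrast of type 1 with type 2 differed between day 28 and day 7 in 23 list or named genes, by edgeR's test of the difference itself. Over all genes that test called 139 of 20421 (0.681%). The lists were chosen with earlier results of these data known, so the 23 are listed and not weighed against that share. The value given is the day 28 log2 contrast less the day 7 one. Macrophage and monocyte genes were all negative: Cbr2 (-1.79), Ccl6 (-1.79), Ccl8 (-1.94), Cd163 (-2.40), Chil3 (-3.61), F13a1 (-2.13), Folr2 (-1.35), Ifitm6 (-2.23), Mrc1 (-1.14) and Pf4 (-1.05). So were the neutrophil and acute-phase gene Lcn2 (-3.51), the interferon gene Zbp1 (-0.92), the lipid genes Scd1 (-3.83), Insig1 (-0.59) and Lss (-0.62), the detoxifying enzyme Gsta4 (-0.96), the epicardial gene Aldh1a2 (-1.36) and the matrix gene Efemp1 (-1.65). Positive values were found for the matrix genes Eln (1.54), Mfap4 (0.96) and Adamts10 (0.69), for Igf1r (0.37) and for Sesn3, a FoxO target (0.44).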

How the results depend on the processing

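The number of calls depended on the method more than the direction of named genes did. Against 224 higher and 383 lower genes, DESeq2 called 367 and 615, limma-voom 378 higher, and edgeR with no filter on low counts 128 higher. With the cardiomyocyte marker mean as a covariate 532 and 685 passed, and with libraries summed by the first number of their name 16 and 109. That number was 65, 67, 68 or 69 in type 1 and 37, 38, 49, 50 or 62 in type 2 libraries. Whatever it marks can thus not be told apart from the type of diabetes. Leaving out 1 library gave 118 to 283 higher and 254 to 465 lower genes. The covariates of macrophage markers (642 higher, 522 lower) and of T and NK cell markers (526 higher, 728 lower) were chosen after seeing the data, and with the first the share of lower calls went from 63.1% to 44.8%, as higher calls rose by more than lower ones. With the second, Trac (0.21), Trbc2 (0.080) and Il2rb (0.10) turned positive without passing, and so did, among others, the medians of the B cell (1.20, 1 member higher), class II (0.31, 5 higher), dendritic cell (0.20, 2 higher), T cell (0.17), macrophage (0.17), resident macrophage (0.15), complement (0.049, 1 higher), cytokine (0.033, 2 higher) and LXR target (0.016, 1 higher and 3 lower) lists. The cardiac stress median turned to -0.18. T and NK cell markers make up that covariate. That covariate left 10 class I members lower (median -0.45), and summed libraries left 14 interferon-stimulated genes and 0 of the 7 NK cell and 6 cell cycle calls, and lost 34 of 53 named calls. The difference between days was called in 466 genes by DESeq2 and in 53 with no filter, against 139. With the replicate block, 46 genes were higher and 159 lower, and 26 of 53 named calls were lost. Libraries with the same replicate number correlated at -0.18 to 0.34 and matched best with their own number in 1 of 10 pairs. Replicate numbers thus do not pair the samples. Of the 53 named calls 15 held under every alternative and 34 in all 20 fits without 1 library. The mitochondrial share differed by -2.39 to -0.634 points over those fits. How depth limits the calls was not tested. Causes of these shifts were not tested.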

Other observations

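Glucocorticoid-responsive and immediate early genes gave calls against non-diabetic infarct. Of 17 glucocorticoid-responsive genes, 10 were higher in type 1 (background 2.6%) and 12 in type 2 (background 7.21%) than in the non-diabetic libraries that both share, and none passed between the types in edgeR (1 with an unadjusted p under 0.05, 1 called by DESeq2, 0 by limma-voom). Per1, a clock gene that glucocorticoids induce, exceeded non-diabetic tissue by 1.03 (adjusted p = 0.00366) in type 1 and 1.02 (adjusted p = 0.00114) in type 2. Fkbp5, a chaperone of the glucocorticoid receptor, did so by 1.28 and 1.56. Of 23 immediate early genes, 12 were higher in type 1 (background 2.6%) and 9 in type 2 (background 7.21%), and none passed between the types in edgeR (5 with an unadjusted p under 0.05, 1 called by DESeq2, 0 by limma-voom).

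Of 18 complement genes 2 were lower in type 1 than in type 2 infarct (background 2.03%): Cfb, factor B of the alternative pathway (-1.67 ± 0.38, adjusted p = 0.0103), and C6, of the membrane attack complex (-2.50 ± 0.61, adjusted p = 0.0173), both at low levels. Without type 2 replicate 4, C6 differed by -1.80 (adjusted p = 0.0745) and Cfb by -1.44 (adjusted p = 0.0281). The gene with the smallest p of all was Ly6a, the interferon-responsive surface antigen Sca-1, at -0.76 ± 0.08 (adjusted p = 3.44e-06) with no overlap of the groups. Muc15, a membrane mucin, was higher in every type 1 library than in any type 2 library at day 28 (1.98 ± 0.26) and was also higher at day 7 (1.80, adjusted p = 0.000497), at low levels. These genes were chosen after their values were seen.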
